A study of Arabidopsis thaliana with 32 samples.

Results

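High CO2 was compared with ambient CO2 in leaves that stayed in their growth light. Of the 32 leaf samples sequenced, 8 belong to this comparison, 4 from plants kept for 3 h in air with 1000 ppm CO2 and 4 from plants kept for 3 h at 400 ppm, both in growth light (GL) of 100 µmol photons m-2 s-1. They were taken by their labels alone, and all 21469 genes that passed a low filter were tested, out of 21525 listed. The plants were wild-type Arabidopsis thaliana (Col-0) of 6 to 7 weeks, grown in an 8 h day, and the seventh leaf of the rosette was taken. The other 24 samples were leaves at 0 or 100 ppm CO2 in GL, and leaves at 0, 100, 400 or 1000 ppm CO2 under the PSI-PI treatment, in which bright pulses on weak red light for 3 h photoinhibit photosystem I (PSI). Each of these groups also had 4 leaves. A leaf is a mixture of cell types, so fewer cells of a type and less RNA per cell cannot be told apart.

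Ambient CO2 limits carbon fixation by Rubisco in C3 leaves, and CO2 also reaches gene expression through sugars, through guard cells and through the redox state of the chloroplast. Superoxide made at PSI is removed by superoxide dismutases (SODs), and Arabidopsis carries copper/zinc, iron and manganese forms. When copper is short, the transcription factor SPL7 binds GTAC motifs and raises the iron enzyme FSD1 together with copper microRNAs, among them miR398, which act against the transcripts of the copper/zinc enzymes CSD1 and CSD2 and of their copper chaperone CCS. Iron storage follows a similar logic, with ferritins high when iron is plentiful and a set of bHLH transcription factors, short peptides and ubiquitin ligases high when it is short.

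The microRNA and its matches are shown here because CSD2, CCS and FSD1 are among the genes that changed most clearly. The mature miR398 sequences below are from the TAIR10.1 annotation of RefSeq, with the seed (bases 2 to 8) in capitals. All 3 share the seed.
miR398a-3p: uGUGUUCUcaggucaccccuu
miR398b-3p: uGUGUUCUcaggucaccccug
miR398c-3p: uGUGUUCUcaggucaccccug
The best match to miR398b-3p in each of 4 transcripts is written 5′ to 3′, with the bases that pair with the microRNA by Watson-Crick rules in capitals.
CSD1: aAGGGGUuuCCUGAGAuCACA
CSD2: ugcGGGUGACCUGgGAAaCAuA
CCS: CAuuGGGaGACCUGgGAACACu
AT3G15640: aAGGuGUGACCUGAGAAuCACA
The match in CSD2 lies in the coding sequence on the plus strand of chromosome 2 (12015572 to 12015593), and that in CCS lies in the coding sequence on the minus strand of chromosome 1 (4267521 to 4267542). The matches in CSD1 (chromosome 1, split by an intron into 2827177 to 2827191 and 2827680 to 2827685) and AT3G15640 (chromosome 3, 5299204 to 5299225) precede the coding sequence. A penalty of 1 for a mismatch or an extra base and 0.5 for a G:U pair, doubled at microRNA bases 2 to 13, gave 4 for AT3G15640, 5 for CCS and 6 for CSD1 and CSD2. At most 31 of 21340 genes scanned (0.145%) had a best match with a penalty as low. FSD1 had a penalty of 9, which 12.2% of the genes reached. BCB, a blue copper protein gene on the list of copper microRNA targets used below, had 9.5, which 19.3% reached. A match describes letters and does not show cleavage.

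The 250 bases before the start of FSD1 (TAIR10.1, chromosome 4, 12887012 to 12887261, minus strand) are shown because this gene fell most among the SODs, with the SPL7 core motif GTAC in capitals.
FSD1: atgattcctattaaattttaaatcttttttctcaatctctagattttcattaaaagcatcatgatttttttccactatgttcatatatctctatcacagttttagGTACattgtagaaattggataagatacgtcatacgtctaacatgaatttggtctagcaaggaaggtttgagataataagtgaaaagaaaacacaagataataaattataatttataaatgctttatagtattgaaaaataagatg
GTAC is its own reverse complement, so 1 search covers both strands. It occurred once here, 145 bases before the start, and 34.3% of 27443 protein-coding genes had it in a window of the same length. CSD1 had 2 copies in its window, CCS had 1 and CSD2 had 0.

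Leaf 1 at 1000 ppm stood apart from the other 3 leaves of its group. Normalized counts summed to between 21308164 and 21849137 in the 4 leaves at 400 ppm, 20978630 in leaf 1 at 1000 ppm and 18494378 to 18856907 in leaves 2 to 4. The 10 most abundant genes took 9.18 to 9.69% at 400 ppm, 8.93% in leaf 1 at 1000 ppm and 6.98 to 7.20% in its other leaves. On the first principal component of the 8 leaves, which held 26.4% of the variance, leaf 1 lay at -32, on the side of the leaves at 400 ppm (-26.3 to -8.44), and leaves 2 to 4 lay between 23.6 and 58.6. On the second (20.1%) it lay at 54.5, farther from the leaves at 400 ppm (-41 to 2.94) than leaves 2 to 4 (-5.65 to 20). Leaf 1 correlated less with its own group (mean r = 0.9767 over log2 values) than with the leaves at 400 ppm (0.9804). The label was kept, and results that rest on this leaf are also given without it. The median SD over genes was 0.257 on the log2 scale at 1000 ppm and 0.172 at 400 ppm. The mesophyll markers RBCS1A, LHCB1.2 and CA1 were high in every leaf, as in green tissue, and their summed level moved with the photosynthesis genes described below.

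High CO2 changed few genes in GL. Fold changes are given as differences of the mean log2(normalized count + 1), a scale that understates the change of genes with low counts. With limma, 50 of 21469 genes (0.233%) were DEGs, meaning an adjusted p under 0.05 and a log2 fold change of at least 1 in size, and 23 of them (0.107%) were higher and 27 (0.126%) lower at 1000 ppm. At 0 ppm against the same 400 ppm leaves the count was 2182 (10.2%), and at 100 ppm it was 1750 (8.15%). In 42 of the 50 DEGs the 4 leaves at 1000 ppm did not overlap the 4 at 400 ppm, a separation found in 8.64% of all genes. The DEGs were chosen on these same leaves, so their separation adds no support. The number of DEGs depended on single leaves. It was 136 (48 higher, 88 lower) without leaf 1 at 1000 ppm, and 26, 28 and 27 without leaves 2, 3 and 4 at 1000 ppm. It was 21 and 24 without leaves 2 and 3 at 400 ppm. Of the 50 DEGs, 48 were called without leaf 1 at 1000 ppm as well.

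The chloroplast copper/zinc SOD rose and the iron SOD FSD1 fell at high CO2. In mean normalized counts CSD2 and CCS rose 3.44-fold and 2.71-fold, FSD1 fell 4.51-fold, and the other SODs measured did not pass the test. CSD2 (AT2G28190), the copper/zinc SOD of the chloroplast, had 2037, 1307, 1814 and 2415 normalized counts in leaves 1 to 4 at 400 ppm and 9651, 4825, 4990 and 6566 at 1000 ppm. All leaves at 1000 ppm were above all leaves at 400 ppm, and leaf 1 was the highest. The log2 fold change was 1.76 (SE 0.27, 95% interval 1.2 to 2.31, limma adjusted p = 0.00135). CCS (AT1G12520), which loads copper into these enzymes, had 772.8, 580.6, 649.3 and 763.7 normalized counts at 400 ppm and 2223, 1765, 1514 and 2006 at 1000 ppm. Again the groups did not overlap, and the log2 fold change was 1.43 (SE 0.22, adjusted p = 0.00135). FSD1 (AT4G25100), the iron SOD, had 13731, 19096, 17124 and 11760 normalized counts at 400 ppm and 4173, 3492, 4221 and 1795 at 1000 ppm. Every leaf at 1000 ppm was below every leaf at 400 ppm, leaf 4 being the lowest, and the log2 fold change was -2.23 (SE 0.31, 95% interval -2.87 to -1.58, adjusted p = 0.000722). In a fit of the 8 leaves alone the adjusted p was 0.0763 for CSD2 and 0.0544 for FSD1, while CCS stayed under the threshold.

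**Figure D1:**
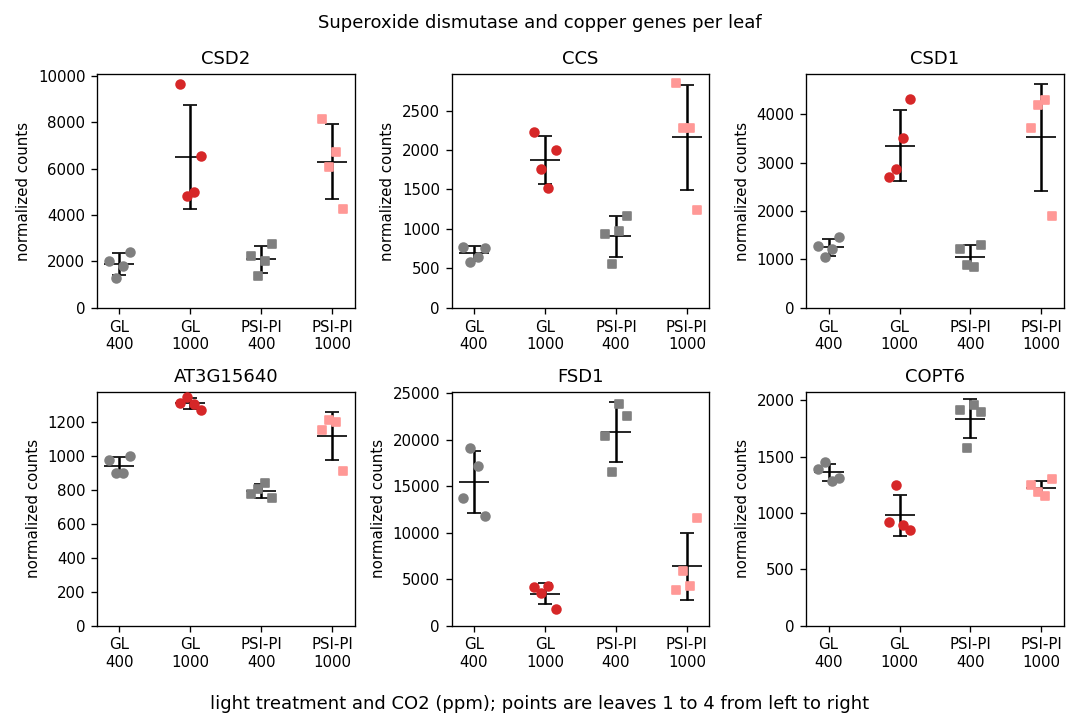
Normalized counts (y axis, from 0) of 6 superoxide dismutase and copper genes in leaves 1 to 4 at 400 and 1000 ppm CO2 in GL (circles) and under PSI-PI (squares), with the mean and SD of each group of 4. CSD2, CCS, CSD1 and AT3G15640 lie higher at 1000 ppm in both lights and FSD1 and COPT6 lie lower, with no overlap in GL.

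CSD1 (AT1G08830), the cytosolic copper/zinc SOD, had 1287, 1043, 1225 and 1472 normalized counts at 400 ppm and 2708, 2862, 3520 and 4315 at 1000 ppm. The groups did not overlap, but the log2 fold change of 1.4 (SE 0.34) missed the threshold at a limma adjusted p of 0.0616. It passed without leaf 1 at 1000 ppm (1.5, adjusted p = 0.0319) and in 3 other alternatives. AT3G15640, listed as a further miR398 target, had 979.7, 897.9, 900.4 and 998.4 normalized counts at 400 ppm and 1312, 1348, 1310 and 1273 at 1000 ppm. Its groups lay apart by a small step of 0.47 (SE 0.12, adjusted p = 0.0699). The other SODs gave log2 fold changes of -0.09 for the plastid iron SOD FSD2, -0.19 for FSD3, -0.10 for the mitochondrial manganese SOD MSD1 and -0.19 for the peroxisomal CSD3, with adjusted p of 0.712 or more. Of 9 listed SOD and chaperone genes 8 were measured, of which 2 rose, 1 fell and 5 did not pass (adjusted p under 0.05 alone: 0.377% of all genes), with a median of -0.10 beside 0.00 over all genes.

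Of 14 listed targets of copper microRNAs 13 were measured, and only CSD2 and CCS passed. The median was 0.14. Blue copper protein BCB had 2650, 1844, 2077 and 2321 normalized counts at 400 ppm and 2139, 2638, 2619 and 2343 at 1000 ppm, overlapping groups that differed by 0.14 (limma adjusted p = 0.912). The laccases LAC2, LAC4, LAC12, LAC13 and LAC17, copper enzymes of the cell wall, lay between -0.57 and 0.37, with adjusted p of 0.805 or more, and LAC3 was listed at 0 in all 8 leaves. None of the 7 copper microRNA precursors was in the table, so their levels were not analysed here. Among 18 of 21 listed genes of copper uptake and delivery 1 fell and none rose, with a median of -0.11. COPT6, a copper transporter, had 1392, 1451, 1288 and 1311 normalized counts at 400 ppm and 922.4, 1248, 897.2 and 845.8 at 1000 ppm. The groups did not overlap and the log2 fold change was -0.49 (SE 0.11, adjusted p = 0.0378), a call lost without leaf 3 or 4 at 1000 ppm, without any 1 of the leaves at 400 ppm and in the fit of the 8 leaves, where the adjusted p reached 0.184. YSL2, a metal chelate transporter, had 27.1, 36.7, 43.9 and 29.4 normalized counts at 400 ppm and 13.8, 14, 14 and 13 at 1000 ppm, and this difference of -1.24 did not pass (adjusted p = 0.18) although the groups lay apart. SPL7 itself differed by 0.32 (adjusted p = 0.469). Plastocyanin, the abundant copper protein of the thylakoid, is encoded by PETE1 (-0.89, adjusted p = 0.133) and PETE2 (-0.57, adjusted p = 0.1). Both passed without leaf 1 at 1000 ppm (-1.15 and -0.76).

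The ferritins FER1 and FER4 fell at high CO2. They were 2 of 7 measured genes of iron storage (9 listed), none rose, and the median was -1.36, where 0.377% of all genes passed on adjusted p alone. FER1 (AT5G01600, chromosome 5, 227953 to 230051 in TAIR10.1), an iron storage protein of plastids, had 1771, 3947, 5215 and 782.7 normalized counts at 400 ppm and 644.5, 351.6, 347.9 and 503.5 at 1000 ppm. Leaf 4 at 400 ppm was the lowest of its group by far but remained above every leaf at 1000 ppm. The log2 fold change was -2.37 (SE 0.54, limma adjusted p = 0.045), and this call was lost in 9 of 18 alternatives, where the adjusted p reached 0.215, among them leaving out leaf 2, 3 or 4 at 1000 ppm or leaf 1, 2 or 3 at 400 ppm. FER4 (AT2G40300) had 565.5, 797.4, 818 and 311.4 normalized counts at 400 ppm and 287.2, 111.3, 144.6 and 161.8 at 1000 ppm. Its groups did not overlap, leaf 4 at 400 ppm was again the lowest, and the log2 fold change was -1.81 (SE 0.28, adjusted p = 0.00135). FER3 (-1.36, adjusted p = 0.194), the iron-sulfur protein NEET (-1.57, adjusted p = 0.0668) and the vacuolar iron transporter-like gene VTL2 (-0.89, adjusted p = 0.134) did not pass with all leaves. Without leaf 1 at 1000 ppm they did, which made 5 of 7 lower with a median of -1.77, in a fit that called 254 of all genes (1.18%) lower. AT3G49160, annotated as a pyruvate kinase family member, had 302.7, 360.3, 409.8 and 90.7 normalized counts at 400 ppm and 120, 24.8, 35.5 and 69.3 at 1000 ppm. Leaf 1 at 1000 ppm overlapped leaf 4 at 400 ppm, and the log2 fold change was -2.25 (SE 0.36, adjusted p = 0.00158).

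Regulators of iron deficiency lay higher at high CO2 as a list, though few passed the test. Of 19 genes, all measured, 17 had a log2 fold change above 0 and 2 rose (0.377% of all genes passed), with a median of 1.19. The study had reported members such as FEP2 and BHLH101 as lower under PSI-PI than in GL, with these GL leaves among those compared. The direction of this list is therefore not fully independent evidence either. AT1G47400 (chromosome 1, 17385707 to 17386485) had 0, 0, 2.78 and 3.88 normalized counts at 400 ppm and 17.9, 33.5, 24 and 7.22 at 1000 ppm. The groups did not overlap and the log2 fold change was 3.21 (SE 0.60, limma adjusted p = 0.00917), a call lost without leaf 2 of either group and in the fit of the 8 leaves alone (up to 0.144). FEP2 (AT1G47395, chromosome 1, 17382998 to 17383830), an Fe-uptake-inducing peptide that lies next to it, had 0, 0, 6.49 and 8.72 normalized counts at 400 ppm and 40.3, 34.5, 48.9 and 7.25 at 1000 ppm. Leaf 4 at 1000 ppm fell inside the range at 400 ppm, and the call (3.25, SE 0.73, adjusted p = 0.0408) was lost in 7 of the alternatives, 4 of them without leaf 2 or 3 at 1000 ppm or leaf 1 or 2 at 400 ppm (up to 0.225). Both counts are low, and reads shared between such neighbours could be split either way. FEP1 (AT2G30766), a more abundant Fe-uptake-inducing peptide gene, had 105.1, 60.2, 138.9 and 628.6 normalized counts at 400 ppm and 584.2, 784.9, 714.2 and 275 at 1000 ppm. Its groups overlapped and it did not pass (1.83, SE 0.65, adjusted p = 0.256).

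The bHLH genes of subgroup Ib, the best known activators of the iron deficiency response, were uneven over leaves and did not pass. BHLH038 had 0, 0, 14.8 and 4.8 normalized counts at 400 ppm and 54.2, 27.9, 15.6 and 0.808 at 1000 ppm, and BHLH101 had 2.01, 0, 3.89 and 17.8 and 29, 80.7, 36.6 and 6.12. In both, leaves 1 to 3 at 1000 ppm were above every leaf at 400 ppm and leaf 4 was not. Their log2 fold changes were 2.26 (limma adjusted p = 0.256) and 2.80 (adjusted p = 0.136), and BHLH039 and BHLH100 gave 2.11 and 1.81. BTS, the ubiquitin ligase that restrains the response, had 1531, 1170, 1215 and 2499 normalized counts at 400 ppm and 2894, 5791, 3268 and 2166 at 1000 ppm, and did not pass at 1.11 (adjusted p = 0.1). The bHLH repressor PYE gave 1.19 (adjusted p = 0.101), and FIT, the root factor, gave -0.01. As a mean over the 19 genes relative to the leaves at 400 ppm, leaves 1 to 4 at 1000 ppm lay at 1.60, 1.70, 1.44 and 0.347 on the log2 scale, and those at 400 ppm lay at -0.331, -0.637, 0.177 and 0.79. Leaf 4 at 400 ppm, low in ferritins, was thus the highest of its group in regulators and above leaf 4 at 1000 ppm. ORG1 (AT5G53450), an OBP3-responsive gene, showed 1692, 1311, 1301 and 2874 normalized counts at 400 ppm and 3656, 8890, 4979 and 3279 at 1000 ppm. Here all leaves at 1000 ppm were higher, by 1.5 in log2 fold change (SE 0.25, adjusted p = 0.00332). None of 15 measured genes of iron transport and reduction passed, and their median was -0.01.

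**Figure D2:**
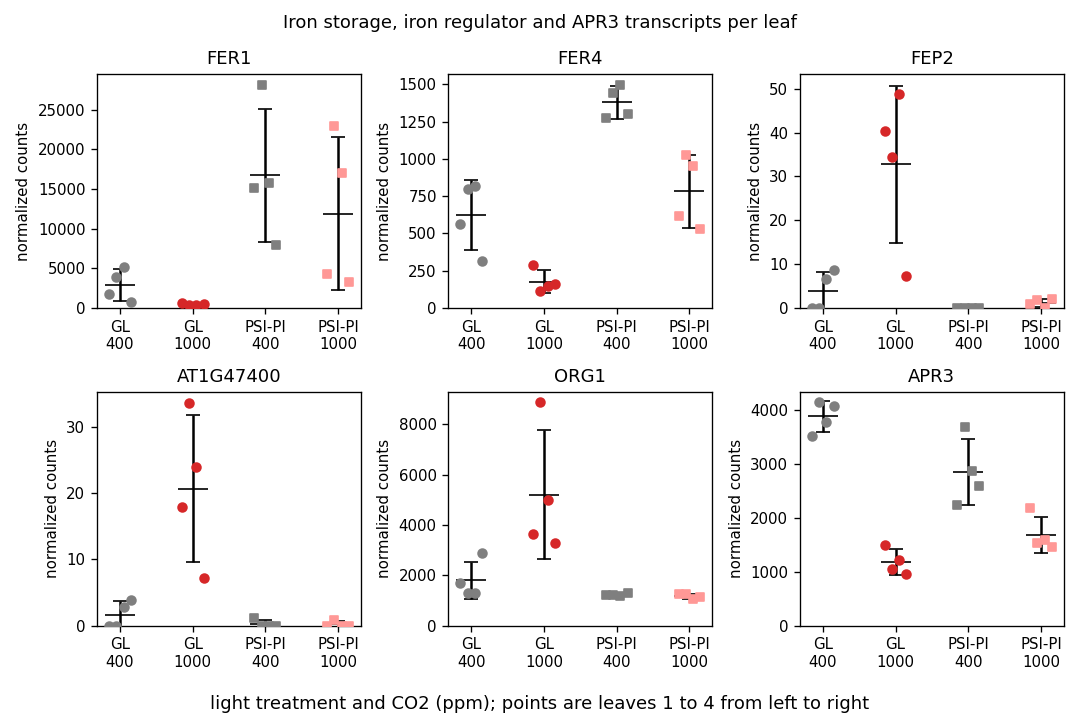
Normalized counts (y axis, from 0) of 2 ferritins, 2 small genes of the iron regulator list, ORG1 and APR3 in leaves 1 to 4 at 400 and 1000 ppm CO2 in GL (circles) and under PSI-PI (squares), with the mean and SD of each group of 4. In GL the ferritins and APR3 lie lower at 1000 ppm and the other 3 lie higher, FEP2 with an overlap.

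Nuclear photosynthesis genes were lower in 3 of the 4 leaves at high CO2. Of 71 genes in 7 lists (light-harvesting antennae of both photosystems, photosystem subunits, cytochrome b6f with plastocyanin, chloroplast ATP synthase and the Calvin-Benson-Bassham cycle) 67 had a log2 fold change below 0, with a median of -0.51 beside 0.00 over all genes, and 1 passed the test. The membership of these lists follows genes the study itself displayed for these samples, so their direction is not independent evidence. At an unadjusted p under 0.05, 48 were lower, beside 5.38% of all genes. In 22 of them the 4 leaves at 1000 ppm lay below all leaves at 400 ppm, beside 3.96% of all genes. The mean over the 71 genes was -0.029 in leaf 1 at 1000 ppm, against -0.688, -0.633 and -0.692 in leaves 2 to 4. The leaves at 400 ppm average 0 by construction and each stayed within 0.009 of it, partly because their lists cancelled. Leaf 1 at 400 ppm lay at 0.136 for photosystem I and at -0.185 for the Calvin-Benson-Bassham cycle. Leaf 1 at 1000 ppm thus lay close to the ambient leaves and far from the other leaves of its group. Without it 19 of the 71 passed as lower, beside 1.18% of all genes in that fit, and the median was -0.65.

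**Figure D3:**
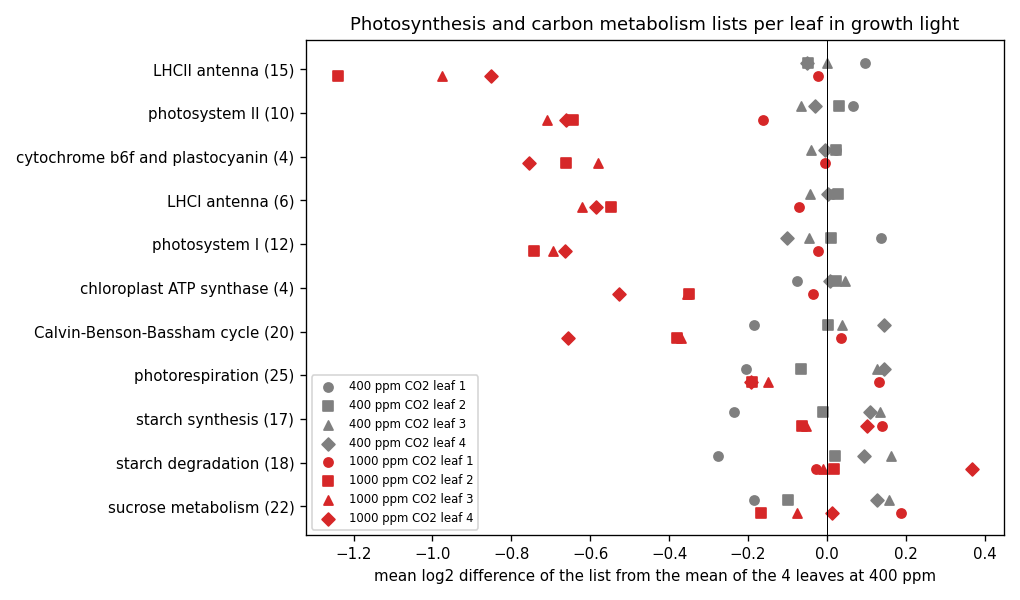
Mean log2 difference of the genes of 11 lists (number of genes in brackets) from the mean of the 4 leaves at 400 ppm CO2 in GL, for each leaf at 400 ppm (grey) and 1000 ppm (red). In the photosynthesis lists leaf 1 at 1000 ppm (circle) sits near the ambient leaves and leaves 2 to 4 sit lower, while the starch and sucrose lists show no such gap.

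The antenna of photosystem II had the lowest median of the 7 lists. The median was -0.74 for 15 LHCII genes, -0.58 for photosystem II, -0.51 for LHCI, -0.51 for photosystem I, -0.44 for cytochrome b6f and plastocyanin, -0.36 for the Calvin-Benson-Bassham cycle and -0.27 for the ATP synthase. Quantile normalization forces all leaves to 1 distribution. It shrank the medians to -0.36 for LHCII, -0.27 for photosystem II, -0.08 for LHCI, -0.16 for photosystem I, -0.14 for the Calvin-Benson-Bassham cycle and -0.03 for the ATP synthase. Its value for cytochrome b6f and plastocyanin is not given here. PSAN (AT5G64040), the PSI-N subunit, had 37506, 39432, 36062 and 31601 normalized counts at 400 ppm and 30721, 13238, 14855 and 14946 at 1000 ppm. Even leaf 1 was just below the ambient range, and the log2 fold change was -1.06 (SE 0.24, limma adjusted p = 0.0461), a call lost without any leaf but leaf 1 at 1000 ppm, in the fit of the 8 leaves and under quantile normalization (up to 0.196). RBCS1A, a small subunit of Rubisco, had 314639, 330650, 340355 and 384323 normalized counts at 400 ppm and 338644, 184575, 198070 and 144499 at 1000 ppm. Leaf 1 lay inside the ambient range and the others below it, and the log2 fold change of -0.73 did not pass (adjusted p = 0.422).

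The same split of leaves was seen in FD2 and HEMA1. FD2 (AT1G60950), the main leaf ferredoxin, had 25168, 30675, 35719 and 24993 normalized counts at 400 ppm and 30010, 7551, 10919 and 9322 at 1000 ppm. Leaf 1 overlapped the ambient leaves, and FD2 fell by 1.23 on the log2 scale (SE 0.27, limma adjusted p = 0.0341), or by 1.65 without leaf 1 (adjusted p = 3.38e-05). The call was lost in 7 of 18 alternatives (up to 0.252), without leaf 2, 3 or 4 of either group and in the fit of the 8 leaves. HEMA1, glutamyl-tRNA reductase at the first step of chlorophyll and haem synthesis, had 4360, 4793, 6303 and 4935 normalized counts at 400 ppm and 5426, 1107, 1927 and 1971 at 1000 ppm. Leaf 1 again lay among the ambient leaves, and the log2 fold change was -1.21 (SE 0.27, adjusted p = 0.0399). Leaving out any leaf except leaf 1 at 1000 ppm ended this call, as did 3 other alternatives (up to 0.267). Among 29 genes of cyclic electron flow and ferredoxin, FD2 alone passed and the median was -0.27. SAPX, the stromal ascorbate peroxidase that disposes of the peroxide made by SODs, had 1815, 2651, 2671 and 2348 normalized counts at 400 ppm and 1894, 874.6, 1687 and 1009 at 1000 ppm. Leaves 2 to 4 were below the ambient leaves and leaf 1 was not, and the difference (-0.85, SE 0.17, adjusted p = 0.0198) passed the p threshold but not the fold threshold, and lost its call without leaf 2 or 4 at 1000 ppm or leaf 2, 3 or 4 at 400 ppm and in the fit of the 8 leaves (up to 0.236). The summed level of the 3 mesophyll markers was 513553 to 607740 normalized counts at 400 ppm, 538587 in leaf 1 at 1000 ppm and 223276 to 293737 in leaves 2 to 4. These markers are photosynthesis genes themselves, and the part of cell composition in the result was not tested.

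No listed gene of carbon metabolism passed the test. None of 25 genes of photorespiration, 17 of starch synthesis, 18 of starch degradation and 22 of sucrose metabolism passed with limma, and the medians were -0.10, 0.08, 0.07 and 0.00. BMY3, a beta-amylase outside the list, had 108.86 ± 11.3 normalized counts at 400 ppm (mean and SD, n = 4) and 53.3 ± 18.1 at 1000 ppm without overlap, and fell by 1.07 on the log2 scale (adjusted p = 0.0399), a call lost without any leaf but leaf 1 at 1000 ppm and in 2 other alternatives (up to 0.179). The photorespiration median turned to 0.07 under quantile normalization. None of 6 carbonic anhydrases passed, the abundant CA1 having 78243, 85441, 90903 and 106005 normalized counts at 400 ppm and 102768, 38848, 43844 and 27385 at 1000 ppm (-0.94, adjusted p = 0.46). Of 16 markers of carbon starvation and 5 of sugar induction none passed either. The asparagine synthetase gene ASN1, a marker of low sugar, had 66, 65.7, 43.8 and 47.2 normalized counts at 400 ppm and 25, 29.5, 6.97 and 5.66 at 1000 ppm. It lay lower in every leaf at 1000 ppm but did not pass (-1.96, adjusted p = 0.281). At an unadjusted p under 0.05, 2254 of all genes passed (10.5%).

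The remaining DEGs included genes of the cell wall. EXPA16 (AT3G55500, chromosome 3, 20574752 to 20576249), an expansin that loosens walls, was nearly silent at 400 ppm, with 3.77, 0, 0.919 and 0 normalized counts, and had 92.1, 13.1, 17.1 and 28.3 at 1000 ppm. All 4 leaves were higher, leaf 1 the most, and the log2 fold change was 4.05 (SE 0.58, limma adjusted p = 0.000722). It was the only 1 of 19 expansin and auxin response genes to pass. The peroxidase family gene AT3G17070 had 86.7, 73.5, 59.8 and 57.8 normalized counts at 400 ppm and 269.6, 275.7, 293.2 and 503.3 at 1000 ppm. The invertase or pectin methylesterase inhibitor AT3G62820 had 103.2, 84.4, 71.5 and 67.6 and 328, 227.3, 270.5 and 386. Neither pair of groups overlapped, and the log2 fold changes were 2.22 (adjusted p = 0.000714) and 1.87 (adjusted p = 0.000751). EXO, EXORDIUM, a wall protein that responds to brassinosteroids, went the other way, from 134, 145.9, 163.9 and 151.3 normalized counts at 400 ppm to 61.8, 24.6, 51.9 and 13.7 at 1000 ppm (-2.16, SE 0.34, adjusted p = 0.00158). HAT2, an auxin-inducible homeodomain factor, rose by 1.29 (adjusted p = 0.0164), a call lost without leaf 3 or 4 at 1000 ppm or leaf 1 or 3 at 400 ppm and in the fit of the 8 leaves (up to 0.0844). PGIP1, which inhibits fungal polygalacturonase, had 404.4, 453.3, 390.3 and 431.7 normalized counts at 400 ppm and 182.3, 161.8, 214.8 and 258.8 at 1000 ppm and fell by 1.05 on the log2 scale (adjusted p = 0.00917). Without leaf 2 of either group and in the fit of the 8 leaves PGIP1 was not called (up to 0.0655).

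MGD3 (AT2G11810), which makes galactolipids when phosphate is short, had the smallest p of these genes. It had 30.2, 31.4, 39.6 and 27.9 normalized counts at 400 ppm and 95, 198.9, 135.1 and 200.7 at 1000 ppm. Every leaf at 1000 ppm was at or above 95 where no ambient leaf passed 39.6, and the log2 fold change was 2.2 (SE 0.28, limma adjusted p = 0.00044). Of 14 measured genes of phosphate starvation MGD3 alone passed, the median being 0.15, and its relative MGD2 gave 0.84 (adjusted p = 0.0654). KCS13 (AT2G46720), also known as HIC from its role in the stomatal density response to high CO2, encodes a 3-ketoacyl-CoA synthase of wax synthesis. It had 118.6, 96.3, 91.5 and 70.1 normalized counts at 400 ppm and 276.6, 227.6, 170.7 and 183 at 1000 ppm. All leaves were higher, the difference being 1.18 (SE 0.24, adjusted p = 0.0238). The call was lost in 5 of 18 alternatives (up to 0.0931), without leaf 2 at 1000 ppm or leaf 2, 3 or 4 at 400 ppm and in the fit of the 8 leaves. MYB60, a guard cell factor that promotes stomatal opening, had 201.6, 174.7, 151.2 and 142 and 337.4, 287, 258.3 and 277.3. It also lay higher in every leaf, by 0.80 (SE 0.16, adjusted p = 0.0198), below the fold threshold. It was not called without leaf 2 or 4 at 1000 ppm or leaf 2, 3 or 4 at 400 ppm, nor in the fit of the 8 leaves (up to 0.0956). The other 15 genes of stomatal CO2 signalling did not pass, among them the kinase HT1 (0.22) and the anion channel SLAC1 (0.26). The median of 7 guard cell markers was 0.36 with MYB60 alone passing. Their summed level was 24339 to 34180 at 400 ppm, 46149 in leaf 1 at 1000 ppm and 12137 to 19948 in leaves 2 to 4. The sum thus lay above the ambient range in leaf 1 and below it in leaves 2 to 4, unlike the median. A sum mainly follows the most abundant markers. With each marker weighed alike on the log2 scale, leaves 1 to 4 at 1000 ppm lay at 0.621, 0.163, 0.264 and 0.52. The leaves at 400 ppm lay between -0.093 and 0.151, and 6 of the 7 markers had a log2 fold change above 0. The part of guard cell number in the MYB60 value was not tested. The 4 phloem markers summed to 9914.5 to 11883 at 400 ppm and 10887 to 14696 at 1000 ppm, and none of the markers of phloem, trichomes, dividing or senescing cells passed.

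A gene of sulfate assimilation and a glutamine synthetase gene were also among the DEGs. APR3 (AT4G21990), adenosine phosphosulfate reductase of sulfate assimilation, had 3515, 4147, 3763 and 4067 normalized counts at 400 ppm and 1493, 1048, 1209 and 959.2 at 1000 ppm. The groups lay far apart and differed by -1.74 (SE 0.26, limma adjusted p = 0.00101). Of 11 measured sulfur genes 10 were below 0 and only APR3 passed, with a median of -0.75, and in 5 of them the 1000 ppm leaves lay below all ambient leaves, beside 3.96% of all genes. APR2 gave -0.75 (adjusted p = 0.208) and APR1 gave -0.11. GLN1;4, a cytosolic glutamine synthetase, had 937.4, 426.6, 343.8 and 351.4 normalized counts at 400 ppm and 855.2, 3585, 1923 and 3451 at 1000 ppm. Leaf 1 at 1000 ppm was below leaf 1 at 400 ppm, and the log2 fold change was 2.18 (SE 0.49, adjusted p = 0.0403). This call was lost in 8 of 18 alternatives (up to 0.186), 6 of them without leaf 2, 3 or 4 of either group. None of 13 listed genes of nitrate and ammonium assimilation passed, 6 lying above 0 and 7 below. The largest change among them went the other way from GLN1;4, in NIR1 (-1.13). NIR1 passed only without leaf 1 at 1000 ppm (-1.6, limma adjusted p = 0.0153). RAB18, an abscisic acid-induced dehydrin, had 625.3, 849.6, 760.5 and 669.5 normalized counts at 400 ppm and 141.7, 216.9, 232.2 and 392.2 at 1000 ppm (-1.64, SE 0.28, adjusted p = 0.00367). It was lower in all 4 leaves and the only 1 of 13 abscisic acid genes to pass. ABCG27, an ABC transporter, had 47.7, 42.2, 50.3 and 32.2 and 6.92, 10.7, 5.45 and 13 (-2.19, adjusted p = 0.00101).

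Of the DEGs not yet named, AT5G19580, a glyoxal oxidase-related gene, was among the 6 called under every alternative tried, with CCS, MGD3, AT3G17070, AT3G62820 and APR3. It had 27.1, 22.9, 34.8 and 29.4 normalized counts at 400 ppm and 105.5, 90.6, 87.1 and 137.2 at 1000 ppm (1.84, SE 0.30, limma adjusted p = 0.00184). AtVEX1, of the MtN3 family of sugar transporters, had 2.82, 0.92, 0.918 and 1.91 and 8.6, 8.21, 6.98 and 16.9 (2.07, adjusted p = 0.0386). Both were higher in all 4 leaves at 1000 ppm, but AtVEX1 lost its call in 9 of 18 alternatives (up to 0.181), 6 of them without leaf 2, 3 or 4 of either group. The Rossmann-fold gene AT2G29370 had 3.75, 4.59, 5.5 and 2.86 normalized counts at 400 ppm and 12.8, 31.8, 12.3 and 28.9 at 1000 ppm (2.02, adjusted p = 0.00917). Among the lower genes, the MADS-box factor AGL42 had 108.1, 87.7, 111.8 and 71 and 22.8, 19.6, 24.6 and 30.2 (-1.91, adjusted p = 0.0388), and HCHIB, a basic chitinase, had 42.2, 86.2, 58.6 and 47.6 and 19.8, 27.9, 22.5 and 18.6 (-1.33, adjusted p = 0.0164). None of these 3 overlapped either. AGL42 lost its call without any leaf but leaf 1 at 1000 ppm (up to 0.143), HCHIB without leaf 4 at 1000 ppm or leaf 2 or 3 at 400 ppm and in the fit of the 8 leaves (up to 0.114), and AT2G29370 without leaf 2 or 4 at 1000 ppm and in that fit (up to 0.1). EXPA16, EXO, RAB18, ORG1, FER4, ABCG27 and AT3G49160 lost theirs only in the fit of the 8 leaves, with adjusted p between 0.0531 and 0.21. The genes HEMA1, AT3G49160, GLN1;4, PGIP1, RBCS1A, BMY3, BTS, BHLH038, BHLH101, FEP1 and the other list members given by a value alone lay outside the naming rule and were chosen after their values were seen.

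Several groups known from stress did not pass. None of 17 jasmonate genes, 13 salicylic acid genes, 8 heat shock genes, 13 clock genes and 15 flavonoid genes passed with limma, and the medians were -0.22, -0.21, -0.26, -0.06 and 1.13. The flavonoid genes were uneven over leaves. MYB90, a regulator of anthocyanin synthesis, had 0, 0.917, 0 and 0 normalized counts at 400 ppm and 0, 5.7, 6.93 and 72.8 at 1000 ppm. The mean over the 15 flavonoid genes relative to ambient leaves was 0.006, 0.374, 1.07 and 3.27 in leaves 1 to 4 at 1000 ppm, so leaf 4 carried most of it. PR1, a salicylic acid marker, had 4.71, 3.67, 2.75 and 5.74 normalized counts at 400 ppm and 373.1, 3.25, 1183 and 55.9 at 1000 ppm, so that 3 leaves lay above the ambient range, and did not pass (4.32, SE 2.18, limma adjusted p = 0.498). VSP1, a jasmonate marker, had 257.2, 3294, 1344 and 772.7 normalized counts at 400 ppm and 174.8, 132.1, 178.5 and 208.6 at 1000 ppm, all lower (-2.49, SE 1.11, adjusted p = 0.418). With such a spread over 4 leaves, differences of this size did not pass.

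**Figure D4:**
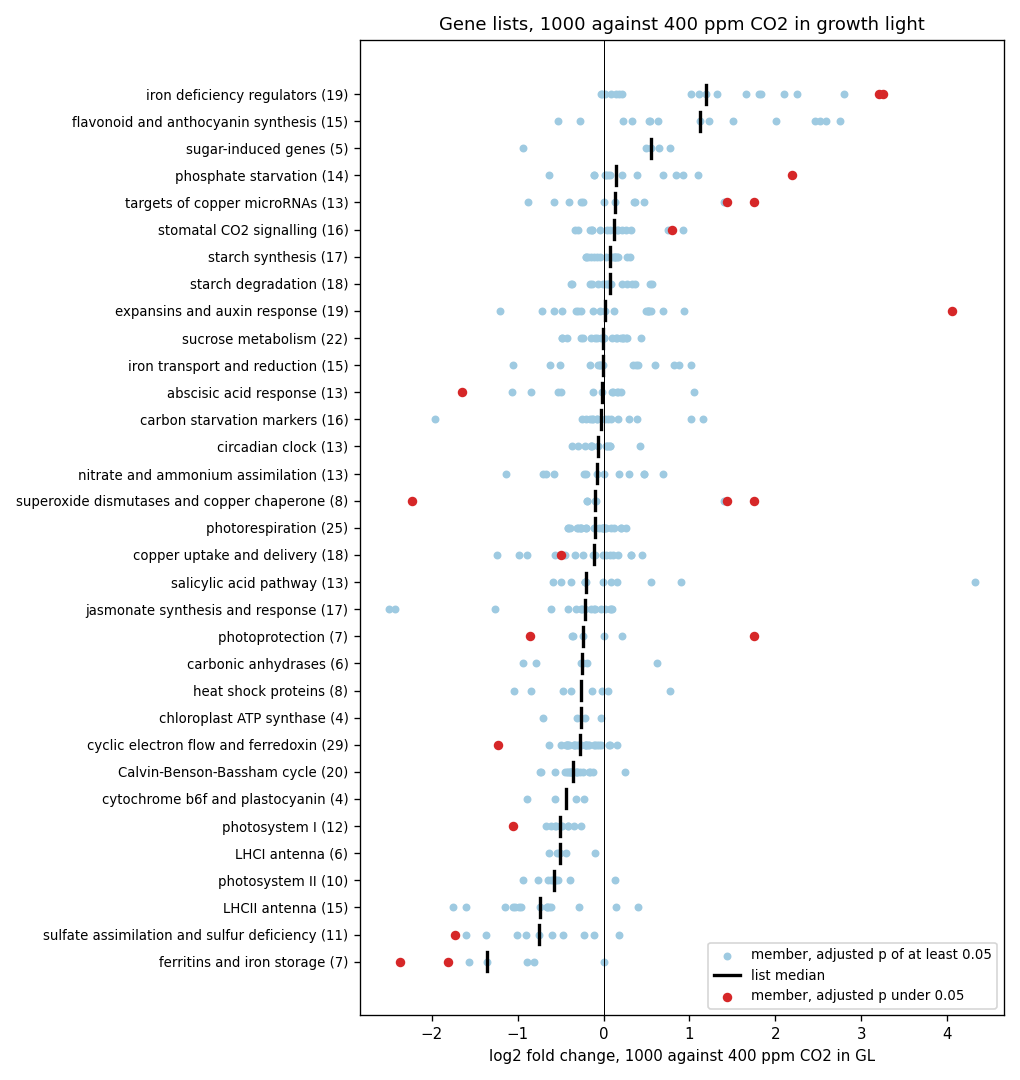
Log2 fold change at 1000 against 400 ppm CO2 in GL of every measured member of each gene list (points, red where the limma adjusted p was under 0.05) with the list median (black bar), ordered by the median, number of measured genes in brackets. Iron deficiency regulators and flavonoid genes have the highest medians (1.19 and 1.13) and ferritins the lowest (-1.36), and red points are few in every list.

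The same contrast under PSI-PI shared no leaf with that in GL. There 99 genes (0.461%) were DEGs, 68 higher and 31 lower, a number that ranged from 14 to 191 as single leaves were left out. It was 61, 18 and 19 without leaves 1, 2 and 3 at 1000 ppm, and 21, 191, 14 and 28 without leaves 1 to 4 at 400 ppm. The DEGs of both lights shared 12 genes, all with the same direction, which made 24% of the list in GL and 12.1% of that under PSI-PI. Of the 50 DEGs in GL, 43 (86%) had the same sign under PSI-PI, beside 59.8% of all genes. The median size of their log2 fold changes was 1.67 in GL, where they were chosen, and 0.565 under PSI-PI. A test of the difference between the lights in each gene (interaction in limma) passed at an adjusted p under 0.05 for 0 of 21469 genes, while 1645 (7.66%) had an unadjusted p under 0.05 and the smallest adjusted p was 0.167.

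CSD2, CCS, CSD1, AT3G15640, FSD1 and COPT6 had the same direction in both lights. Under PSI-PI the log2 fold change was 1.60 for CSD2 (limma adjusted p = 0.00477), 1.24 for CCS (0.00579), 1.69 for CSD1 (0.0162), 0.48 for AT3G15640 (0.0349), -1.84 for FSD1 (0.00477) and -0.59 for COPT6 (0.00762). All 6 passed there, beside 1.68% of all genes on adjusted p alone. They were picked from their lists with results known, so this share adds no support. From these same samples the study had reported the copper/zinc SOD and copper chaperone genes as higher in both lights at every altered CO2 level. Of the lists under PSI-PI, 3 of 8 SOD and chaperone genes rose and 1 fell. Among 13 microRNA targets 5 rose, and among 18 copper uptake genes 2 fell. The difference between lights had a 95% interval of -0.63 to 0.94 for CSD2 and -1.29 to 0.53 for FSD1. BCB, at 0.14 in GL, was 1.1 under PSI-PI (adjusted p = 0.0379). Its interaction had an adjusted p of 0.552. EXPA16 (2.57), AT3G17070 (1.78), AT3G62820 (1.64), EXO (-2.4) and ABCG27 (-1.84) also passed under PSI-PI.

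The iron genes were close to 0 or smaller in size under PSI-PI, but no difference between the lights passed its test. AT1G47400 was 3.21 in GL and -0.05 under PSI-PI, an interaction of 3.26 (SE 0.84, limma adjusted p = 0.364). Under PSI-PI it had 1.2, 0, 0 and 0 normalized counts at 400 ppm and 0, 0.906, 0 and 0 at 1000 ppm. FEP2, BHLH039 and BHLH100 had means of 0 at 400 ppm there, and of 1.16, 0 and 0 at 1000 ppm. With counts this low a fall could not be seen. ORG1 was 1.5 in GL and -0.08 under PSI-PI (interaction 1.58, adjusted p = 0.292). FER1 was -2.37 and -0.81 (adjusted p = 0.662), and FER4 was -1.81 and -0.87 (adjusted p = 0.585). The median of the 19 iron regulators was 1.19 in GL and 0.07 under PSI-PI, that of the 7 storage genes was -1.36 and -0.70, and no member of either list passed under PSI-PI. MGD3 was 2.2 in GL and 0.41 under PSI-PI (interaction 1.78, adjusted p = 0.292), and PGIP1 was -1.05 and 0.43 (interaction -1.48, adjusted p = 0.167). The photosynthesis genes had a median of -0.51 in GL and -0.36 under PSI-PI, where 65 of 71 were below 0 and 2 passed.

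**Figure D5:**
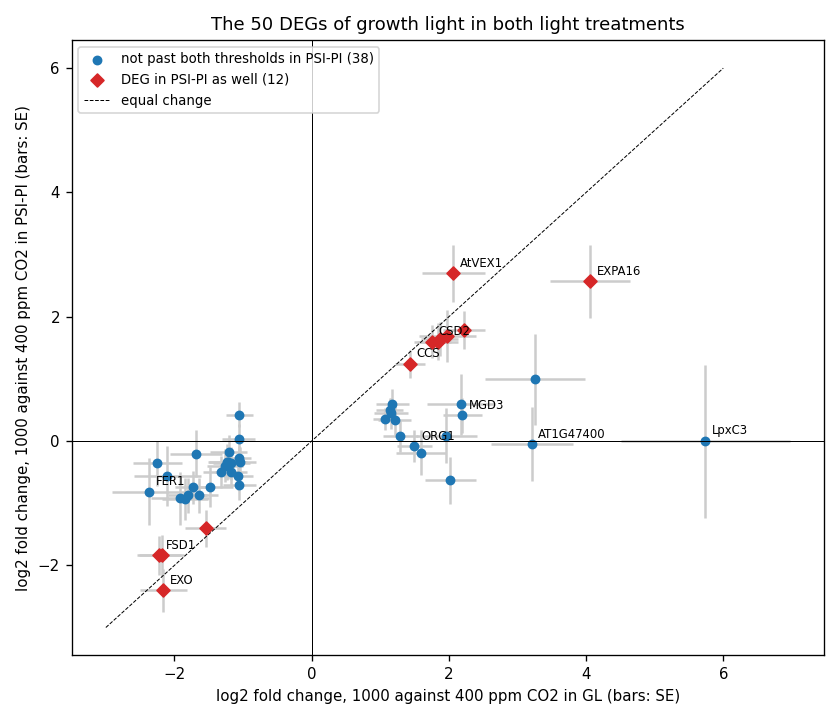
Log2 fold change at 1000 against 400 ppm CO2 under PSI-PI (y axis) against that in GL (x axis) for the 50 DEGs of GL, with SE bars, red diamonds marking the 12 that were DEGs under PSI-PI as well and the dashed line equal change. The genes were chosen by the x axis, and 43 of 50 have the same sign on both.

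The other CO2 steps in GL used the same ambient leaves as control and are given side by side only. For CSD2 the log2 fold changes against 400 ppm were 1.57 with 0 ppm, 1.70 with 100 ppm and 1.76 with 1000 ppm. CCS was 1.59, 1.09 and 1.43 in the same order. The fitted values of CSD2 and CCS were thus lowest at ambient CO2 among the 4 concentrations. FSD1 was -2.04, -0.02 and -2.23, so it was low at both ends and close to the ambient level at 100 ppm. FER1 was 1.72, -0.19 and -2.37, and AT1G47400 was -0.28, -0.50 and 3.21. FER1 thus lay above the ambient level at 0 ppm and below it at 1000 ppm. AT1G47400 lay above it only at 1000 ppm, but with a mean of 1.66 normalized counts at 400 ppm it had little room to fall. The regulator BHLH101 was 1.29, 1.51 and 2.80 in the same order, above 0 at every step, with none passing the test. ABCG27 was 3.73, 2.76 and -2.19, and EXPA16 was -0.38, 1.89 and 4.05. ABCG27 thus lay above the ambient level at both lower concentrations and below it at 1000 ppm. The photosynthesis genes had medians of -0.74, 0.65 and -0.51.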

How the data were processed

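The seventh leaf of wild-type plants was sequenced, with 4 biological replicates in each of 8 groups (32 samples). The authors quantified reads with Salmon v0.12 on TAIR10 transcripts, summed them per gene with tximport and scaled them with DESeq2, and the deposited table holds the resulting signal, normalized counts per gene. These values are not whole (95.0%), raw reads were not recovered from them, and the sequencing depth is therefore unknown here. A second deposited table holds the authors' fold changes and p-values for their own comparisons and was not used.

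Genes with a sum of at least 10 over all samples were kept (56 removed). Values were tested as log2(normalized count + 1) with limma 3.58.1 in R 4.3.3 (lmFit, eBayes with a variance trend), in 1 model of all 32 samples with the group as the only factor (24 residual degrees of freedom), two-sided with Benjamini-Hochberg adjustment over all 21469 genes. The difference of the CO2 response between GL and PSI-PI was tested as an interaction in the same model. The steps were tested on simulated data. Those data had the same spread in every group and no deviating leaf, so the test does not cover these features of the real leaves. Tables and plots were made with pandas 2.3.3 and matplotlib 3.10.9 in Python 3.11.15.

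The naming rule took DEGs without overlap between groups and with a group mean of at least 10. Of these the 15 largest rises and 15 largest falls were kept. All genes of the SOD, copper uptake and copper microRNA target lists were added. Each other list gave its members with an adjusted p under 0.05 or, where there was none, the member with the largest change. The text does not describe all of these 87 named genes. Those left out include AAE16, CYP78A6, AT3G07350, AT4G14490, AT1G09500, AT5G44572, AT1G77960 and AT3G22060. Several copper genes were also left out, UCC2 (-0.88) among them. Genes from outside the rule are stated. The comparison, the lists and this rule were chosen with earlier results of these data known. Alternatives were other pseudocounts, filters and normalizations, fewer samples in the model, no variance trend, a replicate block and each leaf left out. List counts and medians without leaf 1 at 1000 ppm were added after seeing the data. Gene names, coordinates and sequences came from the RefSeq annotation of TAIR10.1, in which 21340 of 21525 gene IDs were found. MicroRNA matches were scanned over all annotated transcripts, keeping the best per gene.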

Additional observations from a re-analysis of the deposited data

Results flagged for a closer look

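For the named genes 171 groups of 4 leaves were checked, and the library totals were checked besides. In 8 cases, 1 of them a library total, 1 leaf had a gap to the nearest other leaf that was large for the group's range. The measure was Dixon's ratio past its 95% critical value, which chance alone passes in about 1 of 20 independent groups. These groups are genes of the same 8 leaves, picked partly for their changes. The number of flags therefore cannot be set against that rate. At 1000 ppm in GL, leaf 1 was far above the other 3 leaves in total normalized counts (20978630), in PSAN (30721) and in the photosystem II gene PSBTn (35172). The part of this leaf in each photosynthesis value is given in the report, and why it stood apart was not tested. At 1000 ppm leaf 4 was the highest in AT3G17070 (503) and the lowest in YSL2 (13, where the other leaves were at about 14). At 400 ppm leaf 2 was the lowest in SPL7 (184) and the highest in MYB90 (0.917, the others being listed at 0), and leaf 4 was the highest in FSD2 (199).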

How the results depend on the processing

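The 50 DEGs in GL became 12 when only the 8 leaves were fitted and 77 without the samples at 0 ppm, and 376 genes passed both the fold threshold and an unadjusted p. With single leaves left out the count ranged from 21 to 136, and 16 of the 50 were called in every such fit. No DEG changed sign. The 81 genes at an adjusted p under 0.05 became 17 with the 8 leaves alone, 197 without the samples at 0 ppm and 2254 unadjusted, and ranged from 24 to 382 with single leaves left out. The 99 DEGs under PSI-PI became 233 without the samples at 0 ppm and 604 unadjusted, and ranged from 14 to 191. The interaction gave 0 genes with limma, 1 in a fit of 16 samples, 0 to 1 with single leaves left out and 1645 unadjusted. Pseudocounts of 0.5 and 5, both filters, median-of-ratios scaling and quantile normalization left the DEGs in GL between 46 and 57. Of 36 named genes called, 6 were called under every alternative, and of 51 not called 8 were called under some. Leaves with the same replicate number did not deviate together (correlations of 0.103, 0.115, -0.005 and -0.069 for numbers 1 to 4), and a fit with that number as a block gave 50 DEGs in GL again (89 genes on adjusted p alone) and 109 under PSI-PI, with 5 calls changed among 87 named genes. With 4 leaves per group and no depth in the values, small differences could not be resolved, and counting error could not be separated from the spread between leaves.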

Other observations

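LpxC3 (AT1G25054, chromosome 1, 8804489 to 8806361 in TAIR10.1) had the largest log2 fold change of the DEGs, 5.74 (limma adjusted p = 0.0314), and is given here because it belongs to a family of 5 near-identical neighbouring genes between which reads can be split arbitrarily. It was listed at 0 in all 4 leaves at 400 ppm and had 171.1, 135.3, 343.1 and 0 normalized counts at 1000 ppm. LpxC4 had 374.1, 304.5, 286.6 and 276.1 at 400 ppm and 131, 229.7, 0 and 409.4 at 1000 ppm. The family sum was 4702, 4231, 3977 and 3821 at 400 ppm and 4548, 5316, 4598 and 6270 at 1000 ppm, and these groups overlapped. The call for LpxC3 is therefore uncertain, and it was lost in 7 of 18 alternatives (adjusted p up to 0.228), 6 of them with 1 leaf left out, leaf 2 or 3 at 1000 ppm or any leaf at 400 ppm.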
